A study of Mus musculus with 12 samples.

Results

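GABA-A receptors are chloride channels opened by the inhibitory transmitter GABA, and 7 genes for their subunits are described here across the mouse dentate gyrus: Gabra2, Gabra3, Gabra4, Gabra5, Gabrb1, Gabrb2 and Gabrd. They were taken as a list of symbols, matched by symbol to the Ensembl identifiers of the deposited count tables, and found in both, 7 of 52636 gene rows in each. Each of the 7 had enough reads to be tested in each comparison. A further 12 subunit genes of the family were read as a separate list.

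Bulk RNA sequencing was done on total RNA from C57BL/6 dentate gyrus, with 12 libraries in 4 groups of 3. One table held WT mice and Fst knockout mice (KO). The other held KO mice given AAV9-CB::GFP, an adeno-associated virus encoding the fluorescent protein GFP (GFP vector). It also held mice that received AAV9-CB::Fst (Fst vector), which the labels call OE without naming the genotype under the vector. Fst encodes follistatin, a secreted protein that binds and blocks activins. The GFP vector group thus carries the knockout as well as a virus, "CB" in the vector name is not spelled out by the labels, and no age, dose, injection site or time is given. The design text can be read as 3 mice per library or 3 mice per group, so whether a library is a pool is unknown. A p-value here speaks only of the spread among libraries. Each group held libraries labelled male and female, which are not repeats of the same sample, but part of the spread may be technical. Libraries are named as in the titles (M1, M2, F1, F), although the sex in the title and that in the description disagree for the F1 and M2 libraries of WT and of KO.

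A GABA-A receptor is assembled from several subunits around a central pore. Alpha and beta subunits form the sites where GABA binds, and a gamma or delta subunit completes most receptors. Receptors with a gamma subunit and alpha2 or alpha3 gather at synapses and give brief inhibition, and alpha2 is frequent on the axon initial segment. Receptors with delta, usually beside alpha4 in dentate granule cells, and many receptors with alpha5 lie outside synapses and carry a steady, tonic current. Granule cells, the principal neurons of the dentate gyrus, are known for strong tonic inhibition of this kind.

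The genes sit in the family's clusters, with coordinates in GRCm38 from the GENCODE annotation. On chromosome 5, Gabra2 (70957597 to 71095849, minus strand), Gabra4 (71569749 to 71658308, minus strand) and Gabrb1 (71658113 to 72149037, plus strand) lie in a row beside Gabrg1. Gabra4 and Gabrb1 stand head to head, and 46 of their exon bases coincide, 0.756% of those of Gabra4 and 0.332% of those of Gabrb1. No source used here says how strand was handled, so reads from those bases cannot be told apart. Gabra5 (chromosome 7, 57407672 to 57510059, minus strand) shares 4.98% of its exon bases with the opposite-strand gene Gm9962, which had at most 0.974 CPM (counts scaled by the library total). Gabrb2 (chromosome 11, 42419757 to 42629028, plus strand) neighbours Gabra6. Gabra3 lies on the X chromosome (72432681 to 72656848, minus strand). Gabrd (chromosome 4, 155384980 to 155398112, minus strand) stands apart from the clusters of the other 6.

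Promoter sequence is shown for Gabra2 and Gabra5, because these were the only 2 of the 7 genes whose vector groups did not overlap, and they lay on opposite sides. RefSeq (GRCm38.p6) held an entry for 6 of the 7 genes, all but Gabrd. Each line below gives the 250 bases before the start of the gene, 5′ to 3′ on the gene's own strand, and neither window overlaps an annotated exon. Capitals mark the single match to the motifs searched.
Gabra2 (chr5:71095850-71096099, minus strand): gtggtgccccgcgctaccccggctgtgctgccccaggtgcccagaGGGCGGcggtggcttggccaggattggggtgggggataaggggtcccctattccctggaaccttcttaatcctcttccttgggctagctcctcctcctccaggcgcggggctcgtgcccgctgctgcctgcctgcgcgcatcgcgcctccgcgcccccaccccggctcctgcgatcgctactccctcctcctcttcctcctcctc
Gabra5 (chr7:57510060-57510309, minus strand): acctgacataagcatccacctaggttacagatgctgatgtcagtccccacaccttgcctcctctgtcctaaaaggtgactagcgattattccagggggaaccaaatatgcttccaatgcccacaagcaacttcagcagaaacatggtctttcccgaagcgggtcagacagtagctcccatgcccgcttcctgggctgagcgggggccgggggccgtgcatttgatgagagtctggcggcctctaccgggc
The Gabra2 window had 70.0% G and C and held 1 GC box (GGGCGG). The Gabra5 window had 56.4% G and C, beside a median of 52.4% over all 32851 windows of that length, and held none of the motifs. The motifs were searched on both strands, and the share of all windows that hold each was 1.55% for the cyclic AMP response element (TGACGTCA), 0.167% for the SMAD palindrome (GTCTAGAC), 6.75% for AP-1 (TGANTCA), 4.70% for the EGR site (GCGNGGGCG), 32.7% for the GC box, 12.4% for the TATA motif (TATAAA) and 6.02% for the canonical E-box (CACGTG). The EGR letters do not contain the GC box letters, but the sites can overlap. A match is a description of the letters and not of a bound site.

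Total counts per library ran from 8081824 to 11331337, and 3 counts, the floor used here, equal 0.265 to 0.371 CPM, the count scaled by the total of its library. Fst had 3.54 to 4.50 CPM in WT, 0.203 to 0.428 in KO and 0 to 0.0974 in the GFP vector group. In the Fst vector group it had 165.7 to 204.1 CPM. Each library thus had the Fst level that its group label implies. Fst alone does not show the sex, whether KO mice received a virus, or the genotype under the Fst vector. All 10 granule cell markers on the list were detected in each group, with Prox1 at 225.9 to 456.6 CPM over the 12 libraries. Some vector libraries stood apart from the rest in marker sums. The 18 immediate-early and activity-induced genes summed to 567.4 to 608.4 CPM in WT and KO, to 556.2, 823.8 and 1600 CPM in GFP M1, M2 and F, and to 622.0, 598.7 and 1402 CPM in Fst M1, M2 and F. The 7 astrocyte markers summed to 1939 to 2101 CPM in WT and KO, to 6558 CPM in GFP F, 3323 CPM in GFP M2 and 2125 to 2765 CPM in the other 4 vector libraries. Most of that rise was Gfap, an intermediate filament gene of reactive astrocytes, at 4864 CPM in GFP F and 1555 CPM in GFP M2 against 369.8 to 463.5 CPM in WT and KO. Without Gfap the other 6 summed to 1694 CPM in GFP F and 1768 CPM in GFP M2, beside 1543 to 1719 CPM in WT and KO. None of the markers on these lists was at 0 in a whole group. The fitted vector changes of the 7 genes and the medians of the lists are therefore also given without both F libraries. The tissue is bulk, so fewer cells of a type and less RNA per cell cannot be told apart.

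To set the subunits against each other, CPM was divided by the length of each gene's merged exons in kilobases (CPM per kb). In WT, Gabra5 had the highest level of the 7 genes, 38.8 ± 3.58 CPM per kb (SD, n = 3, as in all group means here). Gabra4 followed at 26.5 ± 0.712 and Gabrd at 23.0 ± 0.955. Gabrb2 at 20.4 ± 1.57 and Gabra2 at 20.3 ± 1.11 differed by less than their spread, and Gabrb1 had 17.6 ± 0.366. Gabra3 was far below these, at 1.28 ± 0.279 CPM per kb, between Gabrg1 at 1.66 ± 0.172 and Gabrg3 at 1.095 ± 0.195. Gabre, Gabrq, Gabrr1 and Gabrr2 each had a WT mean of at most 0.169 CPM per kb, and Gabra6, Gabrp and Gabrr3 had no read in WT.

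The same order of the 7 genes held in KO, except that Gabra2 (21.8 ± 0.569 CPM per kb) stood above Gabrb2 (20.8 ± 0.719), a gap within 2 SD of either. In the GFP vector group Gabra5 again stood highest of the 7, at 36.3 ± 6.45 CPM per kb. In the Fst vector group Gabrd had the highest mean of the 7 at 32.0 ± 7.34 CPM per kb, and Gabra4 (25.1 ± 4.57), Gabra5 (24.3 ± 1.80) and Gabra2 (23.4 ± 2.33) followed within each other's spread. The levels are a property of this mixed tissue and do not say which cells hold the transcripts.

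**Figure D1:**
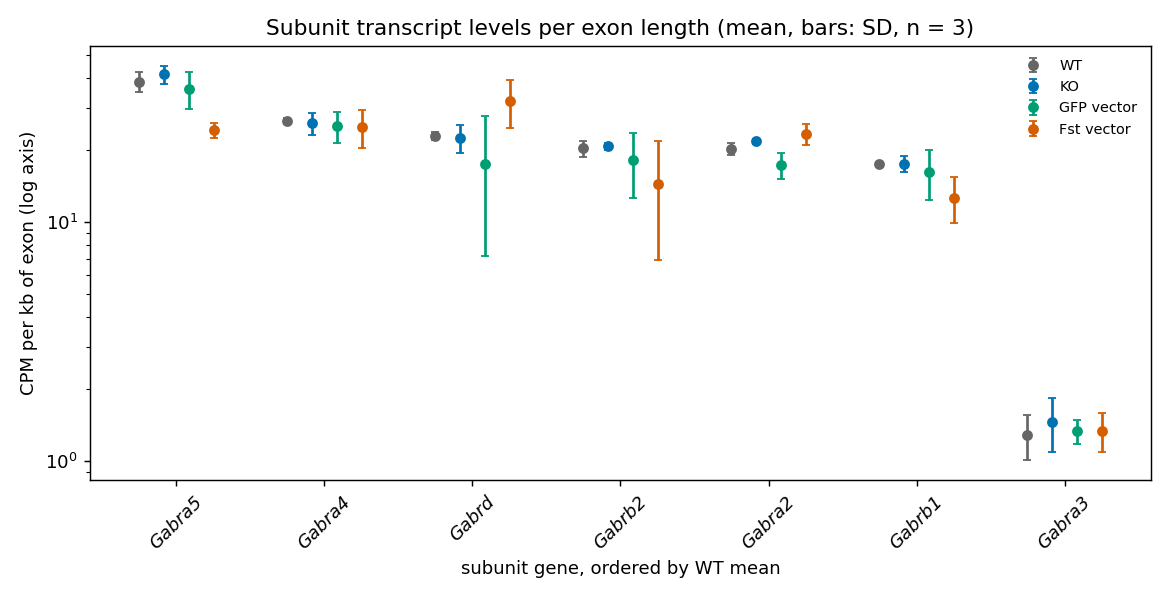
Level of the 7 subunit genes in CPM per kb of merged exon on a log axis (mean, bars show SD, n = 3) in WT, KO, GFP vector and Fst vector. Gabra5 leads at 38.8 in WT and stands at 24.3 in the Fst vector group, where Gabrd reaches 32.0, and Gabra3 stays between 1.28 and 1.46 in all 4 groups.

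The comparison of KO with WT asks which transcripts differ when Fst is deleted. None of the 7 subunit genes passed the test there: edgeR's quasi-likelihood test called 0 of 7 at an adjusted p of 0.05, DESeq2 called 0, and 1 had an unadjusted p below 0.05. Over all 14919 genes tested, edgeR called 0.0268% and 5.96% had an unadjusted p below 0.05. The median log2 change of the 7 was 0.05, beside 0.00 for all genes tested, and 5 of the 7 were positive. The members' values are given by role, from the alpha subunits of synaptic receptors to delta.

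Gabra2, the alpha2 subunit, had 145.7, 162.4 and 156.5 CPM in WT M1, F1 and M2 and 165.4, 171.3 and 162.8 CPM in KO M1, F1 and M2. The lowest KO library lay just above the highest WT library. Groups without overlap were found for 11.0% of all genes tested, and for 3.98% with KO higher. The log2 change was 0.12 ± 0.06 (SE), with an unadjusted p of 0.0427 and an adjusted p of 0.837 by edgeR's quasi-likelihood test. It was thus a 1.09-fold difference that did not pass over all genes, and Gabra2 was the only one of the 7 with no overlap between WT and KO.

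Gabra5, the alpha5 subunit of tonic receptors, had 127.6, 108.3 and 110.2 CPM in WT and 126.6, 112.2 and 133.0 CPM in KO. The groups overlapped, and the log2 change was 0.12 ± 0.07 (edgeR adjusted p = 0.913). Gabra4, which pairs with delta in granule cells, had 156.8 to 165.5 CPM in WT and 143.6 to 175.5 CPM in KO (log2 change -0.01 ± 0.06). Gabra3 rests on 37 to 73 reads per library, had 4.40 to 6.30 CPM in WT and 4.83 to 7.42 CPM in KO, and its change of 0.21 ± 0.22 was within its error. The spread of Gabra3 between WT libraries, 21.7% of the mean, was not far above the 14.1% that counting alone gives.

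The beta subunits differed between the genotypes by less than their error. Gabrb1 had 242.8 ± 5.06 CPM in WT and 243.4 ± 19.1 CPM in KO, and Gabrb2 129.5 ± 10.0 and 132.3 ± 4.57 CPM. Their log2 changes were 0.02 ± 0.06 and 0.05 ± 0.06. Gabrd, the delta subunit, had 66.23, 63.18 and 68.66 CPM in WT and 74.76, 61.03 and 58.61 CPM in KO, a log2 change of -0.01 ± 0.08. For these 3 genes and Gabra4 the adjusted p was 0.968 to 0.997 (edgeR). The SE was 0.06 to 0.08 on the log2 scale for every member but Gabra3.

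**Figure D2:**
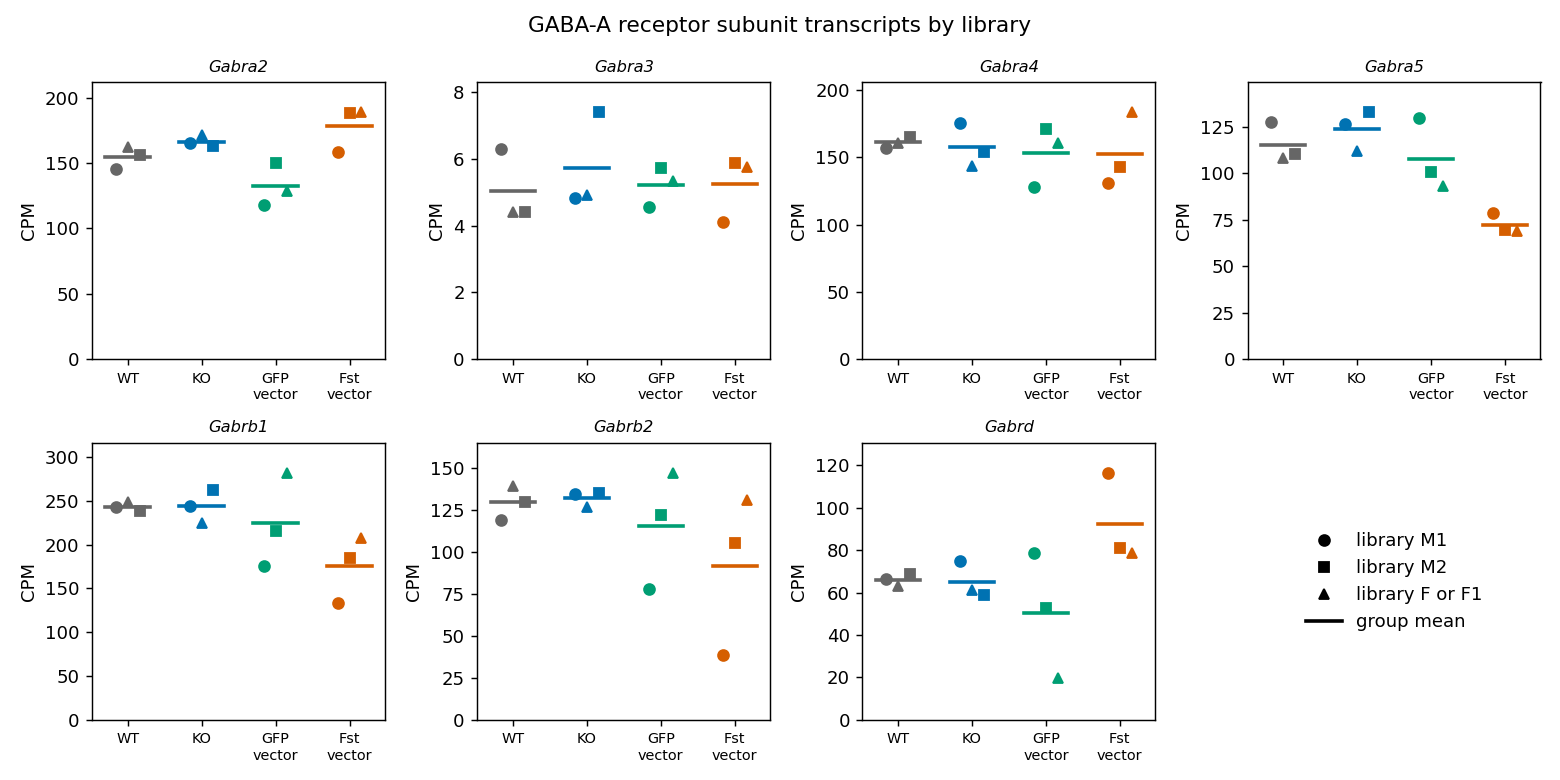
CPM of each of the 7 subunit genes in all 12 libraries, with symbols for the library names and horizontal lines for group means. WT and KO points lie close together in each panel but that of Gabra3, while the vector libraries spread widely for Gabrb2 (38.59 to 147.2 CPM) and Gabrd (19.75 to 116.5 CPM), and the Fst vector libraries of Gabra5 (68.97 to 78.46 CPM) lie below all others.

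The comparison of the Fst vector with the GFP vector group asks which transcripts differ when a virus brings Fst in place of GFP. The genotype under the Fst vector is not named, so a difference in genotype cannot be told apart from one in the vector. Here too edgeR's quasi-likelihood test called 0 of the 7 subunit genes, where it called 0.0798% of 15034 genes tested. An unadjusted p below 0.05 was found for 2 of the 7 (Gabra2 and Gabra5) and for 9.51% of all genes. DESeq2 called 1 of the 7, Gabra5. The 0.0798% is edgeR's share and does not stand beside that call, and DESeq2's share over all genes is not reported here. The median log2 change of the 7 was -0.04, beside 0.01 for all genes, with 2 positive and 5 negative (3 and 4 when scaled by library totals). The median was -0.163 without both F libraries and -0.019 without GFP F, with the same 2 to 5 split. Scaling by library totals moved the share of higher genes among those with an unadjusted p below 0.05 from 45.7% to 56.8% here and from 49.5% to 34.4% for KO and WT, but moved the median of all genes by under 0.1.

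Gabra5 had the smallest p of the 7 genes. Its level was 129.5, 100.6 and 93.30 CPM in GFP M1, M2 and F, and 78.46, 69.47 and 68.97 CPM in Fst M1, M2 and F. Groups without overlap were found for 16.5% of all genes tested here. Every Fst vector library of Gabra5 lay below every GFP vector library, as for 6.01% of all genes, and also below each WT and KO library. Group means were 107.8 ± 19.2 and 72.3 ± 5.34 CPM. The log2 change was -0.61 ± 0.15, a ratio of 0.654, with an unadjusted p of 0.00283, rank 173 of the genes tested, and an adjusted p of 0.244 by edgeR's quasi-likelihood test. Without both F libraries it was -0.67 ± 0.19 (adjusted p = 0.294). DESeq2 (adjusted p = 0.0396), the fit of all 12 libraries with a shared spread (0.0172) and the fit without a filter on low counts (0.0213) put it past the threshold. Calls over all genes depended on the setting, and the shares under these settings are not reported here.

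Gabra2 lay on the other side. It had 118.2, 150.1 and 128.7 CPM in GFP M1, M2 and F and 158.2, 188.8 and 189.2 CPM in Fst M1, M2 and F. All 3 Fst vector libraries were higher than all 3 GFP vector libraries, as for 10.5% of all genes. The log2 change was 0.40 ± 0.13 with an unadjusted p of 0.0157 and an adjusted p of 0.398 (edgeR quasi-likelihood), and no alternative brought it past the threshold. Without both F libraries it was 0.34 ± 0.18 (adjusted p = 0.768). The GFP vector group, at 132.3 ± 16.3 CPM, was itself below KO at 166.5 ± 4.35 CPM. Those groups are in separate tables and differ in virus and table together, so that gap was not tested.

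Gabra4 and Gabra3 had no common direction over the libraries. Gabra4 had 127.8, 171.1 and 160.4 CPM in GFP M1, M2 and F and 130.7, 143.0 and 183.8 CPM in Fst M1, M2 and F, a log2 change of -0.04 ± 0.16. Gabra3 had 4.58 to 5.75 CPM in the GFP vector group and 4.12 to 5.87 CPM in the Fst vector group, a log2 change of -0.03 ± 0.25. The adjusted p was 0.959 and 0.978 (edgeR). Without both F libraries Gabra4 had -0.16 ± 0.18 and Gabra3 -0.09 ± 0.33, and either sign changed when single libraries were left out.

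The beta subunits spread widely within each vector group. Gabrb1 had 175.7, 215.6 and 281.9 CPM in GFP M1, M2 and F and 133.2, 184.2 and 207.5 CPM in Fst M1, M2 and F. The groups overlapped, with a log2 change of -0.40 ± 0.21 (edgeR adjusted p = 0.617), which was -0.20 without GFP F and -0.24 without Fst M1. Gabrb2 had 77.83, 122.2 and 147.2 CPM in GFP M1, M2 and F and 38.59, 105.4 and 131.1 CPM in Fst M1, M2 and F. Fst M1 stood far below the rest, and the log2 change of -0.38 ± 0.46 (edgeR adjusted p = 0.851) was -0.01 ± 0.27 without that library and -0.17 without GFP F. Without both F libraries Gabrb1 had -0.34 ± 0.20 and Gabrb2 -0.52 ± 0.55. Adding each library's rRNA share to the model gave -0.71 for Gabrb2. In both genes the M1 library was the lowest and the F library the highest of its group.

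Gabrd had the largest fitted change of the 7 and the largest error. It had 78.82, 52.49 and 19.75 CPM in GFP M1, M2 and F, and 116.5, 81.21 and 78.71 CPM in Fst M1, M2 and F. The groups overlapped narrowly, since the lowest Fst vector library lay just under the highest GFP vector library. The log2 change was 0.84 ± 0.49, a ratio of 1.79, with an adjusted p of 0.679 (edgeR quasi-likelihood). It depended on single GFP vector libraries, with 1.33 ± 0.44 without GFP M1 (adjusted p = 0.336) and 0.46 ± 0.24 without GFP F (0.784). It was 0.56 ± 0.24 (0.646) without both F libraries.

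**Figure D3:**
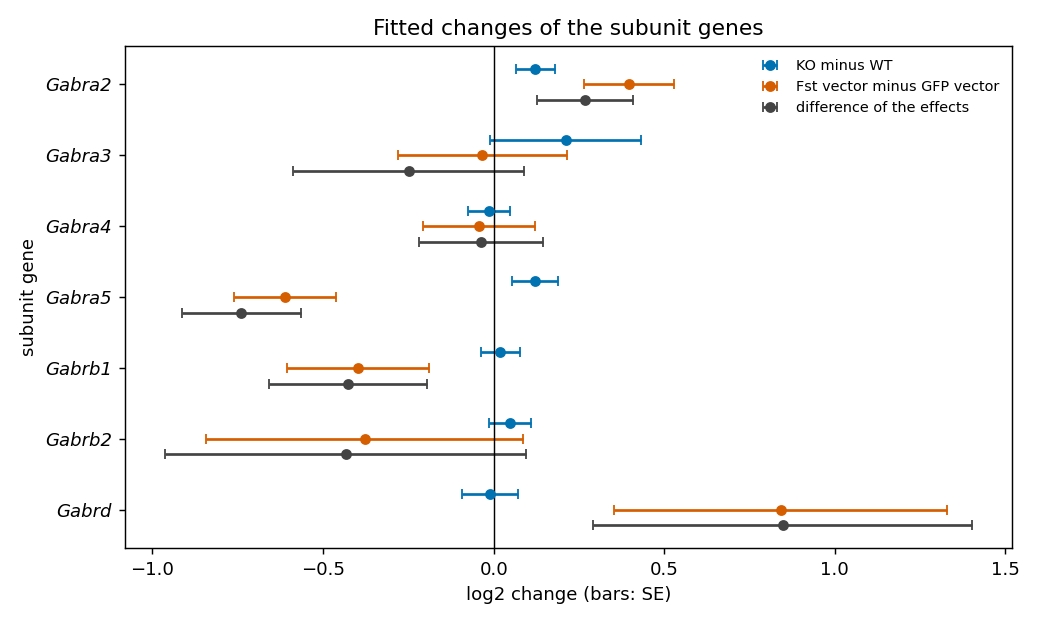
Fitted log2 change of each subunit gene (bars show SE), 3 libraries per group. Shown are KO against WT, Fst vector against GFP vector, and the latter less the former, called the difference of the effects. That difference runs from -0.74 for Gabra5 to 0.85 for Gabrd. Changes for KO against WT lie between -0.01 and 0.21, while those for the vectors run from -0.61 for Gabra5 to 0.84 for Gabrd, with the widest bars for Gabrb2 and Gabrd.

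Libraries of the same name in the vector groups had deviations from their group means that correlated, though weakly for M2 (Pearson r 0.147). Fst M2 correlated about as much with GFP M1 (0.134), so the M2 pair is not set apart by its correlation. Each pair of same-named libraries was also read on its own. In CPM, the log2 ratio of Fst vector to GFP vector was -0.72, -0.53 and -0.44 for Gabra5 in pairs M1, M2 and F, and 0.42, 0.33 and 0.56 for Gabra2. For Gabrd it was 0.56, 0.63 and 1.995, for Gabrb1 -0.40, -0.23 and -0.44, and for Gabrb2 -1.01, -0.21 and -0.17. These 5 genes thus had a single sign in all 3 pairs, and Gabra3 and Gabra4 did not. For Gabra5 and Gabra2 a single sign was fixed by groups that did not overlap. The share of all genes with a single sign in all 3 pairs was not determined, so this count is a description only. With the replicate name as a block, edgeR's adjusted p was 0.05001 for Gabra5, 0.136 for Gabra2, 0.141 for Gabrb1, 0.222 for Gabrd and 0.243 for Gabrb2, and 0 of the 7 passed.

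The vector effect, with the genotype under the Fst vector not named, was set against the knockout effect in 1 fit of all 12 libraries. The difference was taken as the change between vectors less the change between genotypes. EdgeR's quasi-likelihood test called 0 of the 7 genes, where it called 0.281% of 15632 genes tested, and 1 of the 7 (Gabra5) had an unadjusted p below 0.05, beside 9.95% of all genes. DESeq2 called 1, Gabra5. Its share over all genes is not reported here, nor are those of the other settings below. For Gabra5 the difference was -0.74 ± 0.18 on the log2 scale, with an unadjusted p of 0.000782 and an adjusted p of 0.112. With the replicate name as a block it was -0.73 ± 0.13 (adjusted p = 0.0117), with DESeq2 the adjusted p was 0.0146, without GFP F it was 0.0373, and without both F libraries 0.0336. For Gabra2 the difference was 0.27 ± 0.14 (edgeR adjusted p = 0.561) and for Gabrd 0.85 ± 0.56 (0.684). Without both F libraries these were 0.20 ± 0.15 (0.670) and 0.56 ± 0.26 (0.437). The other 4 had adjusted p from 0.580 to 0.972, and from 0.419 to 0.824 without both F libraries. A different response to the vector than to the knockout was thus not shown for these 4, nor for Gabra2 or Gabrd. For Gabra5 the main test did not pass, and whether it passed depended on the setting.

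The proportions among the alpha subunit genes of the list were read from CPM per kb, which sets the subunits on 1 scale. Of the summed transcript of Gabra2, Gabra3, Gabra4 and Gabra5, Gabra5 made up 44.6 ± 2.94% in WT, 45.8 ± 1.87% in KO, 45.2 ± 7.295% in the GFP vector group and 32.99 ± 4.47% in the Fst vector group. Gabra2 made up 23.4 ± 1.84%, 24.06 ± 2.007%, 21.6 ± 2.35% and 31.55 ± 2.07% in the same order. The ratio of Gabra2 to Gabra5 was 0.444 to 0.594 over the 6 WT and KO libraries, 0.355, 0.581 and 0.537 in GFP M1, M2 and F, and 0.785, 1.06 and 1.07 in Fst M1, M2 and F. The Fst vector libraries thus lay above all 9 others. Against the GFP vector libraries this was fixed by the values above. There every Fst vector library was higher in Gabra2 and lower in Gabra5. Gabrd and Gabra4 encode partners in tonic receptors of granule cells, and the ratio of Gabrd to Gabra4 was 0.804 to 0.901 in the WT and KO libraries. It was 1.305, 0.649 and 0.2605 in GFP M1, M2 and F and 1.885, 1.202 and 0.906 in Fst M1, M2 and F. The vector groups overlapped in that ratio, and in both the F library was the lowest. These ratios are a description with no test, as the genes that enter them were tested singly above.

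**Figure D4:**
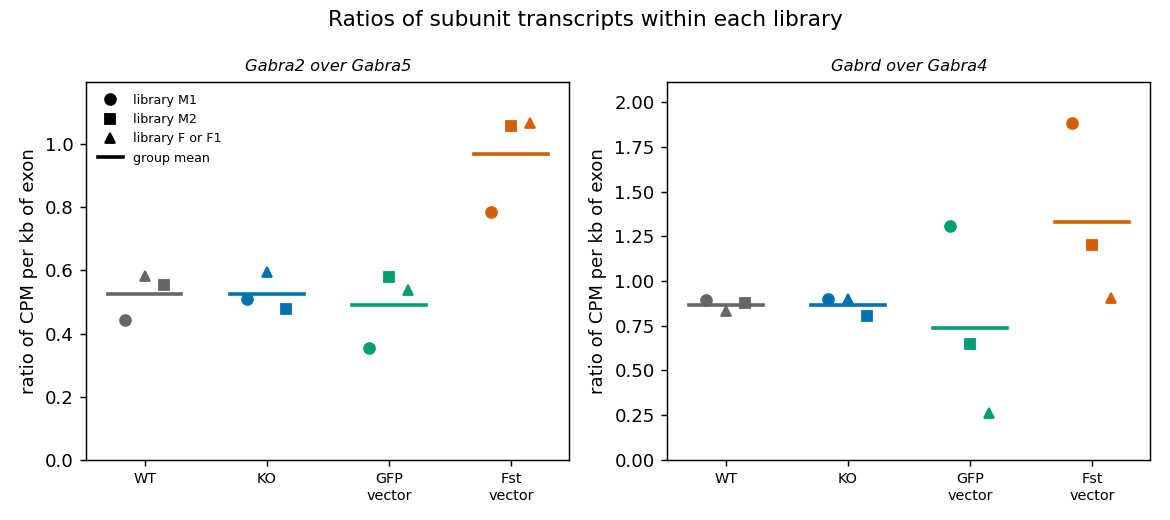
Ratios of subunit transcripts (CPM per kb) in each of the 12 libraries by group, Gabra2 to Gabra5 and Gabrd to Gabra4. For Gabra2 to Gabra5 the 3 Fst vector libraries (0.785 to 1.07) lie above the rest (0.355 to 0.594). Against the GFP vector libraries this follows from Gabra2 and Gabra5 each having no overlap, on opposite sides. For Gabrd to Gabra4 the vector groups spread from 0.2605 to 1.885 while WT and KO keep to 0.804 to 0.901.

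Activity-induced transcripts and granule cell markers moved with some of these values. In the F libraries, whose activity-induced sums were 1600 and 1402 CPM, Gabrd was the lowest of each vector group and Gabrb1 and Gabrb2 the highest. The 2 quantities did not go together in every library. Fst F had more Gabrd (78.71 CPM) than any WT or KO library (58.61 to 74.76 CPM), and Fst M2 had the lowest sum of its group (598.7 CPM) with 81.21 CPM of Gabrd, against 622.0 and 116.5 CPM in Fst M1. GFP M2 lay between GFP M1 and GFP F in both, with a sum of 823.8 CPM and 52.49 CPM of Gabrd.

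The high sums came from part of the list. Of the 18 activity-induced genes, 8 lay above the range of the WT and KO libraries and 6 below it in GFP F, and 9 above and 7 below in Fst F. Penk, which encodes enkephalins, had 478.6 CPM in GFP F and 518.5 CPM in Fst F against 9.002 to 20.7 CPM in WT and KO. Bdnf, a growth factor gene, had 207.9 and 192.4 CPM there. Npas4, a transcription factor gene induced by activity, was below the WT and KO range (3.759 to 6.865 CPM) at 1.145 and 2.768 CPM, and so were Egr4 and Nr4a1. Without Penk, Bdnf and Nptx2, chosen after their values were seen, the other 15 summed to 690.1 CPM in GFP F and 560.7 CPM in Fst F, beside 464.0 to 510.0 CPM in WT and KO. For the vector comparison, 9 of the 18 had a positive change and 9 a negative one (median -0.03), and edgeR called none. Without both F libraries 11 were positive and 7 negative, and without GFP F 15 and 3, with a median of 0.27 in each.

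The 10 granule cell markers split as well. In GFP F 8 lay below the range of the WT and KO libraries and 1, C1ql2, above it (617.9 CPM against 452.7 to 568.4 CPM). In Fst F 5 lay below and 5 above. Calb1, a calcium-binding protein of these cells, was low in both, at 67.83 and 93.88 CPM against 204.2 to 243.5 CPM, while Trpc6, a cation channel gene, was at 40.45 CPM in GFP F and 175.7 CPM in Fst F against 86.17 to 120.8 CPM. Between the vector groups 5 of the 10 had positive changes (median 0.06), and 4 without both F libraries (-0.08). The granule cell list summed to 2645, 2377 and 1767 CPM in GFP M1, M2 and F. It summed to 2480, 2299 and 2253 CPM in Fst M1, M2 and F, beside 2404 to 2583 CPM in WT and KO. Within each vector group these sums and Gabrd ranked the libraries alike. Between the groups they did not, as Fst M1 had a lower sum than GFP M1 but more Gabrd. The part of these transcripts in the subunit values was not tested.

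Markers of other cells differed between the vector groups as well. The 6 oligodendrocyte markers all had positive changes (median log2 change 0.40, and 0.28 without both F libraries) and summed to 1127 to 1306 CPM with GFP and 1504 to 1800 CPM with Fst. All 5 tested endothelial markers were positive too (0.23, and 0.50 without both F libraries), with sums of 97.87 to 161.3 CPM with GFP and 158.2 to 166.4 CPM with Fst. The 6 microglia markers were all negative (-0.20, and -0.10 without both F libraries), but 1 was positive when scaled by library totals, and they summed to 224.6 to 299.8 and 192.2 to 248.0 CPM. Of the 5 tested newborn neuron markers 3 were positive and 2 negative. Sox11 had 44.3, 71.88 and 112.8 CPM in GFP M1, M2 and F and 42.91, 41.01 and 71.4 CPM in Fst M1, M2 and F. The newborn neuron sums, 162.5 to 234.0 and 236.3 to 240.4 CPM, include Calb2, which is on the mossy cell list as well. Of the 7 astrocyte markers 3 were positive, and 5 without both F libraries.

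Markers of regions beside the dentate gyrus also differed. All 5 tested thalamus and habenula markers had positive changes (median 0.29, and 0.59 without both F libraries), with list sums of 47.89 to 55.56 CPM with GFP and 54.91 to 90.43 CPM with Fst. All 5 tested neocortex markers were positive (0.23), and 4 of 5 without both F libraries (0.38), with sums of 87.29 to 140.1 and 114.7 to 151.3 CPM. EdgeR's quasi-likelihood test called no marker of these lists, and their part in the values of Gabra5 and Gabra2 was not tested. The CA1, CA2 and CA3 regions are known for abundant Gabra5. The CA1 pyramidal cell list summed to 77.33 to 85.77 CPM with GFP and 65.32 to 78.28 CPM with Fst. Yet 3 of its 5 tested markers were positive (median 0.17, and 0.30 without both F libraries). The CA3 and CA2 list summed to 200.3 to 304.8 CPM with GFP and 267.0 to 347.1 CPM with Fst. Yet 5 of its 8 markers were negative (median -0.04, and -0.02 without both F libraries). The sums thus do not stand for most markers of either list, and their part was not tested.

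**Figure D5:**
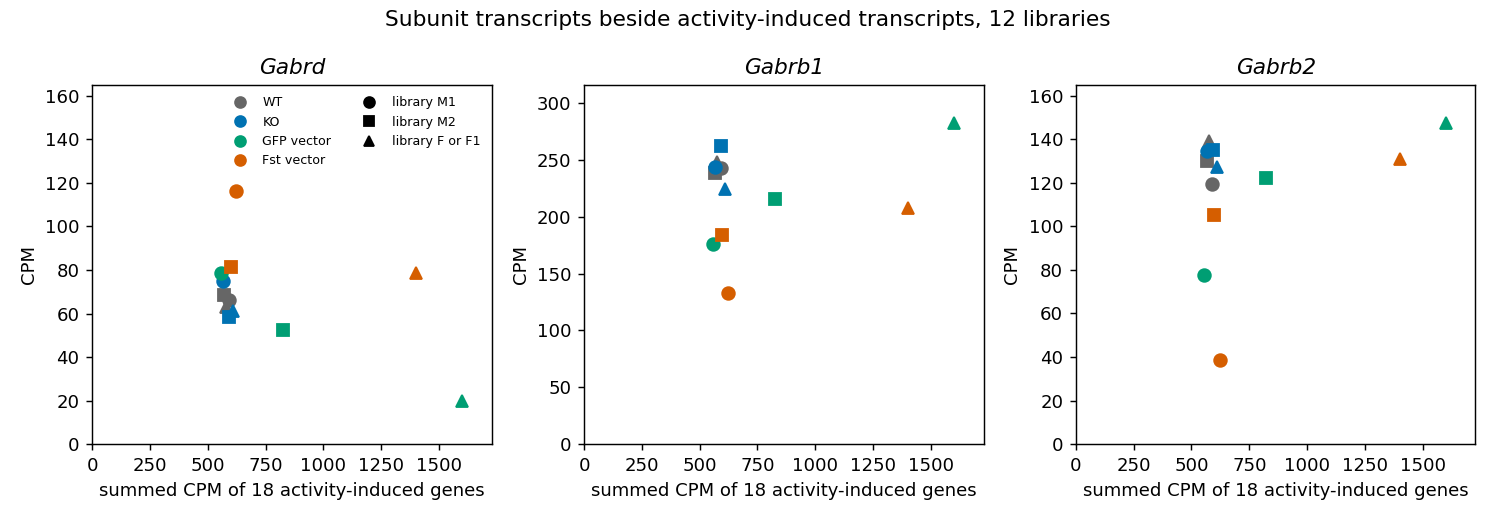
CPM of Gabrd, Gabrb1 and Gabrb2 (y axes) against the summed CPM of 18 activity-induced genes (x axis) in the 12 libraries, coloured by group. The GFP F and Fst F libraries sit to the right at 1600 and 1402 CPM, and GFP F has the lowest Gabrd (19.75 CPM) and the highest Gabrb1 (281.9 CPM) and Gabrb2 (147.2 CPM) of all 12.

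Across the 12 libraries, with each group's mean taken out, the members did not vary as 1 set. Gabrb1 and Gabrb2 varied together (Pearson r 0.899), and Gabrb1 and Gabrd in opposite directions (-0.867). Gabra5 went with Gabrd (0.723) and against Gabra2 (-0.755). The points share library, depth and scaling, and for every member but Gabra3 most of the spread comes from the 6 vector libraries. Gabra3 spread more in WT and KO (SD 21.7% and 25.6% of the mean) than in the GFP and Fst vector groups (11.4% and 18.6%). These correlations are thus descriptions with no test. Over 14576 genes tested in both tables, the 3 genes most like each member by the same measure were Ablim1 (0.958), Pigl (0.948) and Olfml2a (0.936) for Gabra2, and Ss18l1 (0.944), Marcksl1 (0.929) and Gnb5 (0.926) for Gabra5. For Gabra4 they were Brox (0.979), Rapgef4 (0.977) and Tle4 (0.975), and for Gabra3 Ppp1r2 (0.972), Enpp4 (0.935) and Sfxn1 (0.931). Gabrb1 was most like Usp32 (0.994), Mtpn (0.985) and Cltc (0.984), and Gabrb2 most like Dgki (0.991), Gm37233 (0.989) and Spag9 (0.988). Gabrd was most like Sez6l2 (0.993), Map3k12 (0.990) and Ankrd46 (0.985).

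The rest of the GABA system was read from a list of 47 genes, of which 39 were tested in each comparison. EdgeR's quasi-likelihood test called 0 of the 39 in either, and 4 had an unadjusted p below 0.05 in each, beside 5.96% and 9.51% of all genes. In KO against WT, 2 of those 4 were higher and 2 lower. Among the lower ones was Gad2, a GABA-synthesizing enzyme, at -0.21 ± 0.08 (adjusted p = 0.736). The higher ones were Iqsec3, of the inhibitory postsynapse, at 0.17 ± 0.07 (0.751) and Insyn1, also of the inhibitory postsynapse, at 0.12 ± 0.06 (0.837). All 8 tested genes of GABA synthesis, uptake and breakdown had negative changes in KO under each scaling tried (median -0.11), of which 2 had an unadjusted p below 0.05. Some of these genes are also expressed in interneurons or astrocytes. Markers with negative changes in KO were 6 of 10 for interneurons (median -0.10), 6 of 7 for astrocytes (-0.10) and 6 of 6 for newborn neurons (-0.26). The interneuron list shares Gad1, Gad2 and Slc32a1, which are among its 6 negative markers, and its unshared markers went both ways. None of the markers of these lists was called by edgeR, and their part was not tested.

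In the vector comparison 7 of the 8 tested genes of that list were positive (median 0.24, and 0.12 without both F libraries), and none had an unadjusted p below 0.05. Slc32a1, the vesicular GABA transporter, had the smallest p of the higher genes at 0.35 ± 0.16 (edgeR adjusted p = 0.532), followed by Aldh5a1, which breaks GABA down, at 0.21 ± 0.11 (0.583). On the lower side stood Insyn1 at -0.61 ± 0.16 (0.266). These 3 had, without both F libraries, 0.496 ± 0.19, 0.16 ± 0.16 and -0.501 ± 0.201, with edgeR adjusted p of 0.531, 0.904 and 0.577. Of the 22 scaffold and trafficking genes, 17 had negative changes with Fst, with a median of -0.18, and 13 had them when libraries were scaled by their totals. Without GFP F the median was -0.06, and without both F libraries -0.135.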

How the data were processed

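The tables the authors deposited hold raw counts by Ensembl identifier, per the file headers, one for WT with KO and one for the vectors. Reads were placed on GRCm38, per the submitters' processing notes. Not given in the sources used here are aligner, counter, annotation and strand. Lines naming no gene (6 and 12) held no counts. GENCODE for GRCm38 gave symbols and coordinates for 52489 identifiers of each table.

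CPM, counts scaled by library totals of 8081824 to 11331337, was computed from the deposited counts, and 3 counts equal 0.265 to 0.371 CPM. Within each table, and over 12 libraries for the difference of effects, edgeR 4.0.16 (R 4.3.3) fitted quasi-likelihood models with TMM scaling, default filterByExpr and Benjamini-Hochberg adjustment over all genes at 0.05. The SE is the log2 change over the square root of F. The fits were tested on simulated data. Alternatives were DESeq2 1.42.0, other scaling, no filter, sex by title, rRNA share, a replicate block, a shared spread and leaving out libraries. Leaving out both F vector libraries was chosen after seeing the data.

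Members and lists were chosen with earlier results of these data known. Named were all members and, from the GABA lists, the 2 genes with the smallest p per direction and comparison. Some genes this rule takes are not reported here. The 3 genes most like each member have the highest Pearson r of log2 TMM-scaled CPM (prior count 2). Deviations from group means correlated at 0.328, 0.147 and 0.401 for same-named vector libraries (M1, M2, F), which were taken as paired from the data, as no label states it. The main test left this pairing out, and only the replicate block took it in. Of the differently named vector libraries, Fst M2 with GFP M1 had 0.134, and the rest had -0.478 to 0.067. For KO and WT the same-named libraries had 0.071, 0.144 and -0.082 (M1, F1, M2), so the names were not taken to pair them. The F1 value there was close to that of the M2 vector pair.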

Additional observations from a re-analysis of the deposited data

How the results depend on the processing

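Each of the 3 tests found 0 of 7 genes called, and DESeq2, scaling, filter, added terms and left-out libraries were tried on each. No alternative called a member in KO against WT. In the vector comparison 1 member, Gabra5, was called by DESeq2, without a filter and with the spread shared over 12 libraries, and 0 when any 1 library was left out. In the difference of the effects 1 member, again Gabra5, was called by DESeq2, without a filter, with the replicate block and without both F libraries, and leaving out 1 library in turn gave 0 to 1 (1 without GFP F). The replicate block gave -0.60 ± 0.10 for Gabra5 between vectors (adjusted p = 0.05001) and 1 call in the difference. It changed no other call of a member, and for KO and WT, where names do not pair the libraries, it moved the calls over all genes from 4 to 23. Over all alternatives Gabra5 ran from -0.71 to -0.45 between vectors, Gabra2 from 0.33 to 0.49, Gabrd from 0.46 to 1.33, Gabrb1 from -0.54 to -0.20 and Gabrb2 from -0.73 to -0.01. Small changes turned sign. When 1 library was left out, KO against WT ran from -0.021 to 0.399 for Gabra3, from -0.093 to 0.046 for Gabra4, from -0.035 to 0.072 for Gabrb1, from -0.007 to 0.111 for Gabrb2 and from -0.122 to 0.059 for Gabrd. Between vectors it ran from -0.113 to 0.107 for Gabra3 and from -0.196 to 0.049 for Gabra4, and in the difference from -0.189 to 0.055 for Gabra4. Scaling by totals turned Gabra3 to 0.004 between vectors and Gabra4 to 0.023 in the difference. The cause was not tested. Calls over all genes depended on the setting, from 4 to between 1 and 46 for KO against WT, from 12 to between 1 and 412 between vectors, and from 44 to between 13 and 289 in the difference. Counting depth was lowest for Gabra3, with 37 to 73 reads per library.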
